A study of Zea mays with 16 samples.

Results

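Leaves of the maize inbred B73 at 26 °C were compared with leaves at 26 °C from plants labelled CML333, with 2 libraries of each line, 4 of the 16 in the series. The members were chosen by their labels alone, with no measured value. B73, a temperate line, supplied the reference genome of maize, and CML333 is a tropical inbred and a founder of the nested association mapping population. The series holds B73, B104, CML333 and M37W leaves at 26 °C, the control, and at 4 °C, the chilled group, all lit for 14 h a day (10 h dark) with 250 µmol photons m-2 s-1. The labels name no transgene and no agent for either group, and plant age and leaf position were not stated there. The labels do not say whether replicates came from separate plants, so p-values measure only the spread between these libraries, which may be technical.

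Reads came from the 3′ ends of polyadenylated RNA and were deposited as whole-number counts per gene ID. The B73 libraries held 2582414 and 2428008 counts, and the libraries labelled CML333 held 2286771 and 2236517. At 26 °C the lines therefore differed little in depth, and at the smallest of the 4 totals 19808 and 19898 IDs would be seen in B73 and 19807 and 19518 in CML333. Levels are given as CPM, the count of an ID scaled to a common library total, with replicate 1 first and replicate 2 second, and they count transcript ends without regard to transcript length. A difference was called at an adjusted p under 0.05 by edgeR's quasi-likelihood test of the 4 libraries, with Benjamini-Hochberg adjustment over the 14610 IDs tested. Nuclear IDs are not paired with names in the files or in the gene table used, so the 2 nuclear IDs with the largest log2 difference in each direction are printed without names. Leaf identity could not be checked against marker genes for the same reason, and in bulk leaf fewer cells of a type and less RNA per cell cannot be told apart.

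Inbred lines of maize differ both in the level of many transcripts and in which genes they carry, since stretches of the genome that hold genes in one line can be missing or rearranged in another. Mitochondria and plastids have genomes of their own, inherited through the mother, and crosses of the nuclear genome leave them with the maternal line. Organelle RNAs are cut, spliced and trimmed from long precursors, and poly(A) tails on them are added mostly to molecules on the way to decay. A 3′ end kit that primes on poly(A) therefore reads only a part of the organelle RNA. Plant nuclear genomes also carry copies of organelle DNA, and whether reads from such copies entered the organelle counts was not tested.

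The label CML333 was checked against the chilled libraries before any result. On log2(CPM + 1) over the tested IDs, the 2 libraries labelled CML333 at 26 °C correlated at r = 0.955 and the 2 of B73 at r = 0.945. The libraries of the 2 lines correlated with each other at 0.612 to 0.664. Chilled replicate 2 of CML333 correlated with the 26 °C libraries of that label at 0.815 and 0.819, whereas chilled replicate 1 did so at 0.646 and 0.665. That chilled replicate 1 stood nearer to B73 at 26 °C, at 0.746 and 0.767. M37W at 26 °C correlated with the 26 °C libraries labelled CML333 at 0.786 to 0.812 and with B73 at 0.771 to 0.786. These values are across IDs, which are not independent replicates, and they describe the libraries only. The 26 °C libraries of the label thus resembled each other, while the chilled pair, at r = 0.802, did not resemble them equally, so "CML333" below means the libraries so labelled.

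Between the lines, 3070 IDs were higher in B73 (21.0% of those tested) and 2240 were higher in CML333 (15.3%), 36.3% in all. The median size of the difference was 2.26 on the log2 scale among IDs higher in B73 and 1.73 among IDs higher in CML333. At least 4-fold differences made up 57.1% of the first set (1752 IDs) and 41.3% of the second (926 IDs), and at least 16-fold differences 23.9% (734 IDs) and 11.2% (250 IDs). The replicates set the scale for these sizes. Among the 11041 IDs that averaged at least 10 CPM, 0.489% differed 4-fold or more between the B73 replicates and 0.716% between the CML333 replicates, against 13.8% to 16.4% in the 4 pairs that cross the lines. For 2-fold differences the shares were 8.85% and 8.20% within lines and 34.8% to 41.5% across them.

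**Figure D1:**
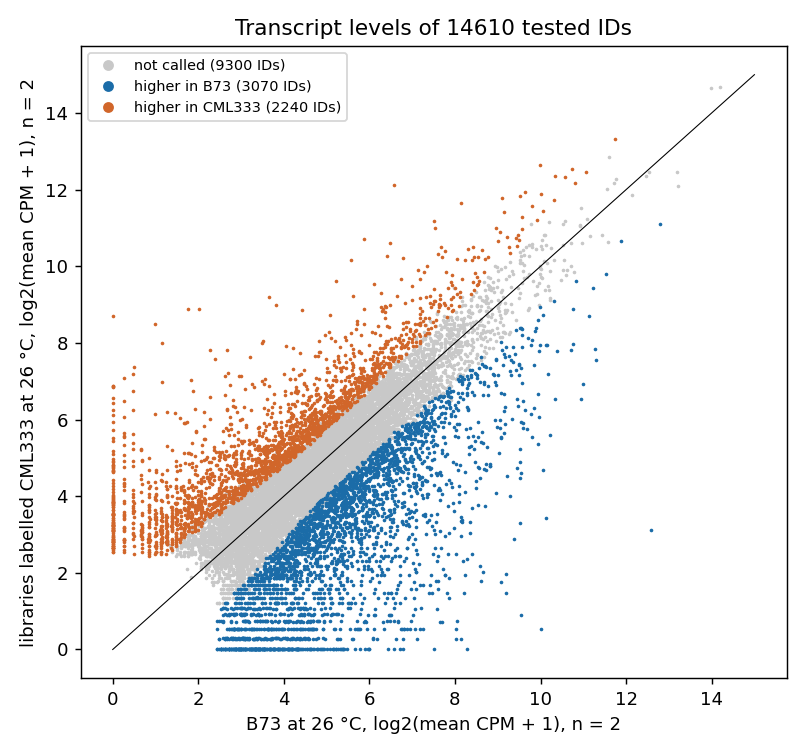
Mean level of each of the 14610 tested IDs in B73 (x axis) and in the libraries labelled CML333 (y axis) at 26 °C, both as log2(CPM + 1) with n = 2; the line marks equal levels. Blue points are the 3070 IDs called higher in B73, orange points the 2240 called higher in CML333, and the points along each axis are IDs with no count in one line.

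The direction of the calls turned only among the most abundant transcripts, where over all IDs tested 21.0% were higher in B73 and 15.3% in CML333. Below 10 CPM 825 of the 3570 IDs tested were higher in B73 and 608 in CML333. Between 10 and 100 CPM these numbers were 1873 and 1295 of 9202. At 100 to 1000 CPM they were 360 and 306 of 1741. Among the 97 IDs at 1000 CPM or more the order turned, with 12 higher in B73 and 31 higher in CML333 and a median log2 difference of 0.63 toward CML333, against -0.02 over all IDs tested. The 50 most abundant IDs of each library took 16.4% and 17.8% of counts in B73 and 22.3% in each CML333 library. Beyond the comparison, the same share was 21.6% and 22.6% in M37W at 26 °C.

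Of 6 plastid IDs tested, 3 were higher in CML333 (15.3% of all IDs), 1 was higher in B73 (21.0% of all IDs) and 2 were not called, with a median log2 difference of 1.85 beside -0.02 over all IDs. The plastid gene atpF encodes a subunit of the ATP synthase that uses the proton gradient of photosynthesis, and its transcript contains an intron. Its level was 2.71 and 2.88 CPM in B73 and 24.1 and 21.5 CPM in CML333. The replicates of each line nearly coincided, at only 7 counts in each B73 library and 55 and 48 counts in CML333. Chilled B73 had 4 and 100 counts (1.65 and 56.2 CPM). At 26 °C the lines did not overlap, and non-overlap held for 68.7% of all IDs tested. The log2 difference was 3.08 (SE 0.434, edgeR adjusted p = 0.000305), 8.14-fold between the means.

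The plastid gene ycf3, an assembly factor for photosystem I whose transcript also contains introns, stood at 15.9 and 26.8 CPM in B73 and at 77.4 and 162 CPM in CML333. The lower CML333 library was above both B73 libraries. The log2 difference was 2.56 (SE 0.447, edgeR adjusted p = 0.00113). M37W at 26 °C had 6.42 and 5.44 CPM, below B73 as well.

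The tRNA gene trnK and the maturase gene matK differed between the lines in opposite directions. In the RefSeq gene table of Zm-B73-REFERENCE-NAM-5.0 the plastid gene matK lies within trnK, whose intron holds it, and its product is a maturase that helps plastid introns to be spliced. The trnK level was 16.7 and 16.5 CPM in B73 and 189 and 76.9 CPM in CML333 (log2 difference 3.07, SE 0.445, edgeR adjusted p = 0.000356). For matK it was 94.5 and 61.8 CPM in B73 and 20.6 and 10.7 CPM in CML333 (-2.23, SE 0.385, edgeR adjusted p = 0.00107). At 26 °C the lines did not overlap for either gene, which held for 68.7% of all IDs tested. In the chilled libraries they overlapped for both. There trnK stood at 4.96 and 101 CPM in B73 and at 140 and 14.3 CPM in CML333. For matK the chilled levels were 5.37 and 18.0 CPM in B73 and 19.2 and 4.76 CPM in CML333. With the spread taken from all 16 libraries, the calls for atpF, trnK and matK were lost (edgeR adjusted p = 0.114, 0.0839 and 0.108), while that for ycf3 held (0.0361). Reads in the shared stretch cannot be assigned to one of the pair with certainty, and no source used here says how they were counted.

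Taken within each library, trnK counts were 0.176 and 0.267 times the matK counts in B73 and 9.19 and 7.17 times in CML333. This ratio does not depend on depth or on the share of plastid RNA. It was 0.752 and 0.319 in M37W at 26 °C, on the side of B73. It was not fixed within a line, however, since the chilled B73 libraries gave 0.923 and 5.62. The chilled libraries labelled CML333 gave 7.28 and 3.

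The remaining plastid IDs were not called. The photosystem I gene psaJ stood at 2.32 and 2.06 CPM in B73 and 4.81 and 4.47 CPM in CML333, from 5 to 11 counts a library (log2 difference 1.14, SE 0.569, edgeR adjusted p = 0.140). The cytochrome b6f gene petD stood at 10.1 and 2.47 CPM in B73 and at 18.8 and 1.34 CPM in CML333, so that each line held a high and a low library. A further 151 plastid IDs were not tested. Of these, 8 had any count in the 4 libraries, with at most 6 counts in one library.

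**Figure D2:**
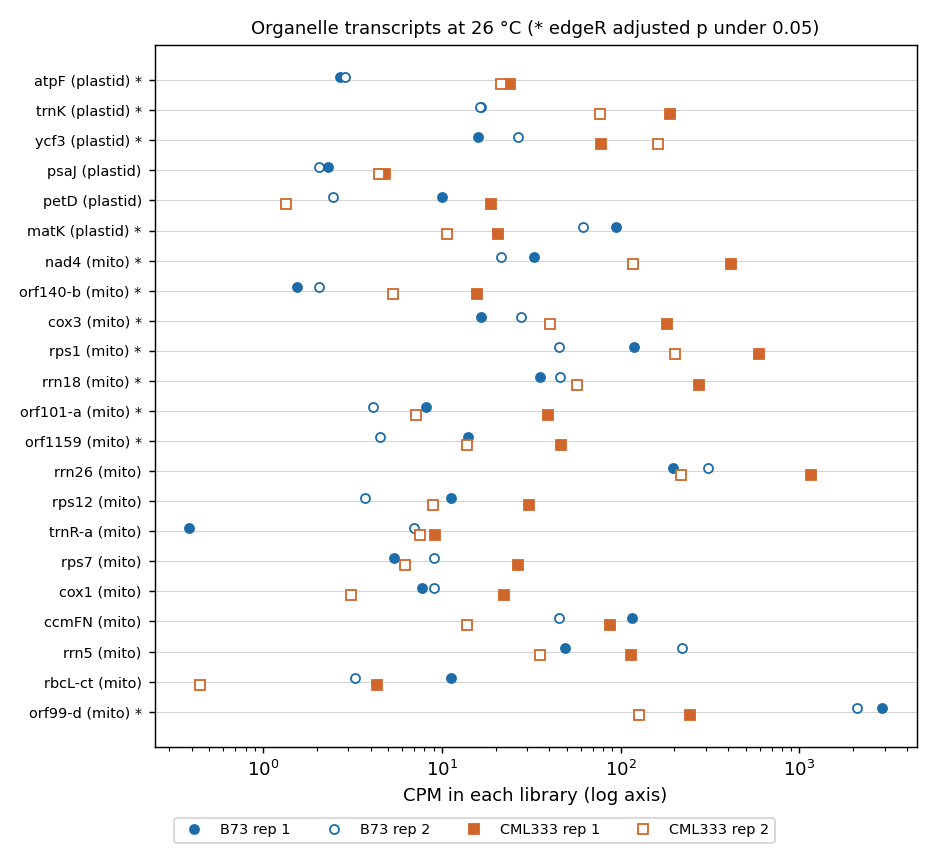
Level of the 22 tested organelle IDs in each 26 °C library, in CPM on a log axis; circles are B73, squares the libraries labelled CML333, filled symbols replicate 1 and open symbols replicate 2, and an asterisk marks edgeR adjusted p under 0.05. The plastid genes atpF, trnK and ycf3 lie to the right in both CML333 libraries and orf99-d and matK to the left, while most mitochondrial IDs lie far apart between the 2 CML333 replicates.

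In B73 the most abundant mitochondrial ID was orf99-d, an open reading frame of the mitochondrial genome that the gene table lists as protein-coding without a named function. It stood at 2889.5 and 2107 CPM in B73 and at 245 and 127 CPM in CML333, 13.4-fold higher in B73 between the means (log2 difference -3.66, SE 0.447, edgeR adjusted p = 0.00012). It alone took 81.6% and 73% of all mitochondrial counts in B73 and 7.43% and 14.6% in CML333. In M37W at 26 °C that share was 21.8% and 21.0%, between the lines. Chilled B73 had 217 and 899 CPM, so the level in B73 was not held across temperatures, while chilled CML333 had 229 and 76.1 CPM.

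Of 16 mitochondrial IDs tested, 7 were called higher in CML333 (15.3% of all IDs), orf99-d was higher in B73 (21.0% of all IDs) and 8 were not called, with a median log2 difference of 1.49. One library weighs on these calls, since CML333 replicate 1 was above replicate 2 for 16 of the 16 IDs, while B73 replicate 1 was above replicate 2 for 8. Mitochondrial IDs other than orf99-d took 0.0654% and 0.0778% of counts in B73, 0.305% in CML333 replicate 1 and 0.0742% in CML333 replicate 2. The second CML333 library thus lay between the B73 libraries in this total. Without CML333 replicate 1, 2 of the 16 were higher in CML333 and 4 higher in B73, and the median difference was 0.36, where 1887 and 2759 of all 15539 IDs were called in these directions. Without CML333 replicate 2, 11 were higher in CML333 and 1 in B73, where 1713 and 2585 of all 15541 IDs were. The lines did not overlap for 7 of the 16, beside 68.7% of all IDs tested.

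The gene nad4, which encodes a subunit of respiratory complex I, stood at 32.9 and 21.4 CPM in B73 and at 413 and 117 CPM in CML333. The log2 difference was 3.36 (SE 0.546, edgeR adjusted p = 0.000733), and it was 2.22 without CML333 replicate 1 (edgeR adjusted p = 4.6e-06). The call for rps1, a protein of the small mitochondrial ribosomal subunit, also held without that library. Its level was 118 and 45.3 CPM in B73 and 597 and 201 CPM in CML333 (log2 difference 2.38, SE 0.549, edgeR adjusted p = 0.00592, and 1.43 with edgeR adjusted p = 0.00674 without CML333 replicate 1). These were the 2 mitochondrial IDs higher in CML333 whichever of the 4 libraries was left out. Both calls depended on the libraries that set the spread: rps1 was not called in the fits of 16 and of 10 libraries (edgeR adjusted p = 0.115 and 0.122), and nad4 was not called in the fit of 10 (0.0502).

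The other calls toward CML333 were lost when CML333 replicate 1 was left out, and most of them also when a B73 library was. For cox3, a subunit of cytochrome c oxidase, levels were 16.7 and 27.6 CPM in B73 and 181 and 40.2 CPM in CML333 (log2 difference 2.38, edgeR adjusted p = 0.00885). For rrn18, the RNA of the small ribosomal subunit, they were 35.2 and 46.1 CPM in B73 and 274 and 57.2 CPM in CML333 (2.09, edgeR adjusted p = 0.0156). Without CML333 replicate 1 these differences fell to 0.96 and 0.60 and were no longer called (edgeR adjusted p = 0.095 and 0.327). The reading frame orf140-b, at 1.55 and 2.06 CPM in B73 and 15.7 and 5.37 CPM in CML333, was called as well (2.59, edgeR adjusted p = 0.0102) and missed the threshold without the same library (0.232). The reading frames orf101-a and orf1159 were called although the lines overlapped, with log2 differences of 1.99 and 1.78 (edgeR adjusted p = 0.0358 and 0.0319). Without CML333 replicate 1 these fell to 0.34 and 0.71 (edgeR adjusted p = 0.765 and 0.371).

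No difference was called for the large ribosomal RNA rrn26, for rrn5, cox1, rps7, rps12, ccmFN, the tRNA pseudogene trnR-a or rbcL-ct, a mitochondrial pseudogene of the plastid Rubisco gene. The gene ccmFN serves the maturation of cytochrome c. It stood at 116 and 45.3 CPM in B73 and at 87.0 and 13.9 CPM in CML333 (log2 difference -0.58, SE 0.639, edgeR adjusted p = 0.511). A further 192 mitochondrial IDs were not tested, of which 37 had any count, with at most 25 in one library.

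To set the total of mitochondrial RNA aside, each ID was also taken as a share of the library's mitochondrial counts without orf99-d. On this scale nad4 made up 5.04% and 2.75% in B73 and 13.5% and 15.7% in CML333. The 2 CML333 libraries, at 413 and 117 CPM, lay close together and above both B73 libraries. In M37W at 26 °C the share was 3.97% and 3.87%, near B73. For cox3 the shares were 2.55% and 3.55% in B73 and 5.94% and 5.42% in CML333, and for rrn18 they were 5.39% and 5.93% against 8.97% and 7.71%. Here too the lines did not overlap. Non-overlap is common with 2 libraries a line, and in CPM it held for 68.7% of all IDs tested. For rps1 the shares were 18.1% and 5.83% in B73 and 19.6% and 27.0% in CML333, so B73 replicate 1 lay near CML333 replicate 1. M37W at 26 °C had 18.0% and 19.5%. The share of orf140-b was higher in both CML333 libraries, and those of ccmFN, rrn5, cox1 and rbcL-ct were lower. The lines overlapped for rrn26, rps12, rps7, trnR-a, orf101-a and orf1159, the last 2 of which were called in CPM.

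The share of ccmFN, which showed no called difference in CPM, was 17.8% and 5.83% in B73 and 2.85% and 1.87% in CML333. M37W stood far above both at 29.5% in each library. The gene rps1 lies next to ccmFN in the mitochondrial gene table, and its counts were 1.02 and 1 times those of ccmFN in B73, 6.86 and 14.5 times in CML333 and 0.611 and 0.662 times in M37W at 26 °C. At 26 °C the ratio thus set these 3 lines apart, but B104 at 26 °C gave 6.2 and 5.13, near CML333 replicate 1. The ratio was also not fixed within a line. Chilled B73 gave 2.1 and 6.95, chilled CML333 gave 5.32 and 2.73, within the range of chilled B73, and chilled M37W gave 1.29 and 1.03, near B73 at 26 °C. These shares are descriptions of 2 libraries a line, and an exact permutation test of 2 against 2 could not go below a two-sided p of 0.333.

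**Figure D3:**
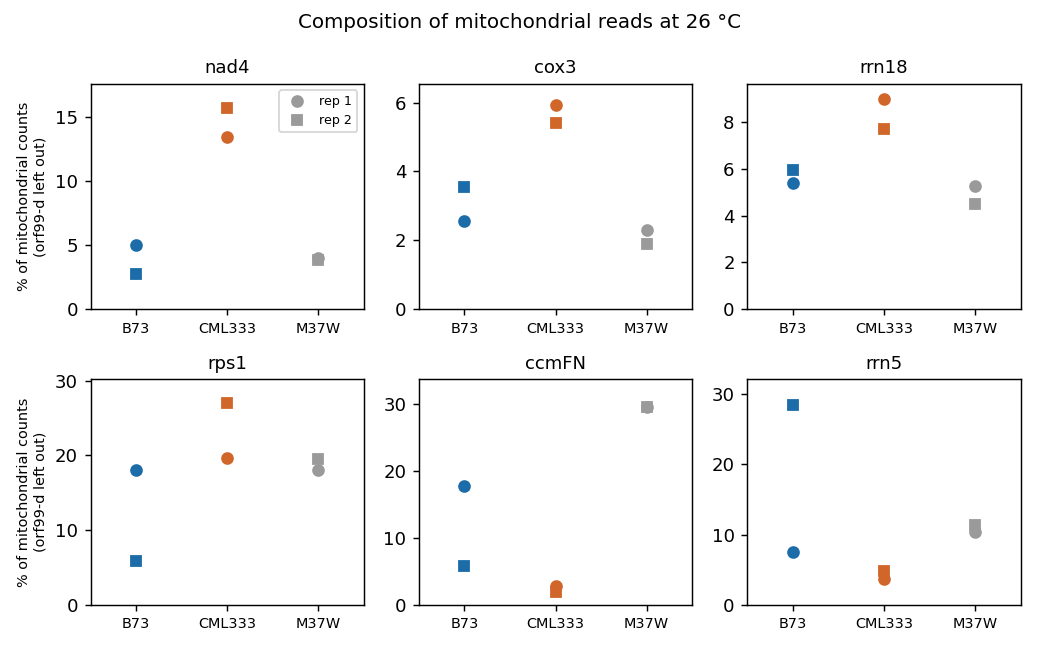
Share of each library's mitochondrial counts, orf99-d left out, taken by 6 mitochondrial genes at 26 °C in B73, the libraries labelled CML333 and M37W; circles are replicate 1 and squares replicate 2, and each panel has its own y axis from 0%. The CML333 libraries lie above B73 and M37W for nad4, cox3 and rrn18 (8.97% and 7.71% for rrn18) and below both for ccmFN and rrn5.

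The remaining classes gave few values. Of 41 tested Ensembl noncoding RNA IDs, 9 were higher in B73 (21.0% of all IDs) and 10 in CML333 (15.3%), with a median log2 difference of 0.22. None of the 154 microRNA IDs had a count in any of the 4 libraries. Nuclear IDs made up 99.6% of counts in each B73 library, and 99.6% and 99.9% of counts in the CML333 libraries.

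Some nuclear IDs were present in one line and without a single count in the other. With at least 10 CPM in both libraries of a line taken as on and 0 counts in both libraries of the other as off, 95 IDs were on in B73 and off in CML333. The reverse held for 46 IDs. These were 0.934% of the 10167 IDs at 10 CPM or more in both B73 libraries and 0.487% of the 9440 such IDs in CML333. All 141 were nuclear. Their median level where on was 19.7 CPM in B73 and 24.2 CPM in CML333, and 4 IDs in each set averaged 100 CPM or more. Against a floor of 3 counts over the off group, the IDs on in B73 were at least 15.9-fold to at least 468-fold higher there, and those on in CML333 at least 17.7-fold to at least 691-fold higher.

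Zm00001d001960 had the widest gap on the side of B73. It stood at 384 and 232 CPM in B73 (992 and 564 counts) and at 0 in both CML333 libraries, at least 468-fold higher in B73 (edgeR adjusted p = 1.0e-05). Zm00001d042293 stood at 213 and 152 CPM in B73 and also at 0 in CML333, at least 277-fold higher (edgeR adjusted p = 1.0e-05). In M37W at 26 °C the first ID was present, at 44.0 and 46.7 CPM, and the second had 0 counts in both libraries. Chilled B73 had 64.4 and 12.4 CPM of the first and 46.7 and 44.4 CPM of the second. Chilled CML333 had 15 and 2 counts of the first and 38.0 and 16 CPM of the second. The 0 counts under the label CML333 thus held at 26 °C only.

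In the other direction, Zm00001d005458 stood at 325 and 504 CPM in CML333 and at 0 in both B73 libraries, at least 691-fold higher in CML333 (edgeR adjusted p = 1.0e-05). Zm00001d052619 stood at 61.2 and 171 CPM in CML333 and at 0 in B73, at least 193-fold higher (edgeR adjusted p = 3.9e-05). Both were also near 0 in chilled B73, with 0 and 1 count and with 0 and 2 counts. M37W at 26 °C had 238 and 414 CPM of the first and 24.2 and 35.8 CPM of the second. Chilled CML333 had 202 and 209 CPM of the first and 37 and 62.7 CPM of the second, so these IDs were present at both temperatures under that label.

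The states of the 141 IDs in the other libraries bear on the labels. Chilled B73 held the state of B73 at 26 °C for 97 and 91 of the 141 and that of CML333 for 1 and 3 of them, and the rest were in neither state. The chilled libraries labelled CML333 held the state of the 26 °C libraries of that label for 48 and 57 IDs and the state of B73 for 38 and 30. M37W held the CML333 state for 74 IDs in each 26 °C library and for 78 and 69 in the chilled ones, and the B73 state for 14 to 19. The share with the CML333 state was 34.0% and 40.4% in chilled CML333 (exact binomial 95% intervals 26.3% to 42.5% and 32.3% to 49.0%, counting error only). It was 52.5% in each M37W library at 26 °C (43.9% to 60.9%). These intervals take the IDs as independent, which they are not, and do not measure the spread between plants of a line.

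Of the 95 IDs on in B73 alone at 26 °C, 24 and 15 were on in the 2 chilled libraries labelled CML333, and 23 had 0 counts in both. Of the 46 that were off in B73, 14 and 15 also had 0 counts in the chilled CML333 libraries, against 2 in each M37W library at 26 °C. Restricted to the 79 IDs whose state was the same in all 4 B73 libraries, chilled CML333 held the CML333 state for 22 and 28 and the B73 state for 32 and 21. Chilled B73 took part in choosing these 79, which can favour the B73 state in any chilled library, so no conclusion is drawn from them. Over all 141 IDs, the libraries that share the label CML333 did not share the on or off pattern across temperatures. Line and temperature cannot be told apart from labelling within that label.

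**Figure D4:**
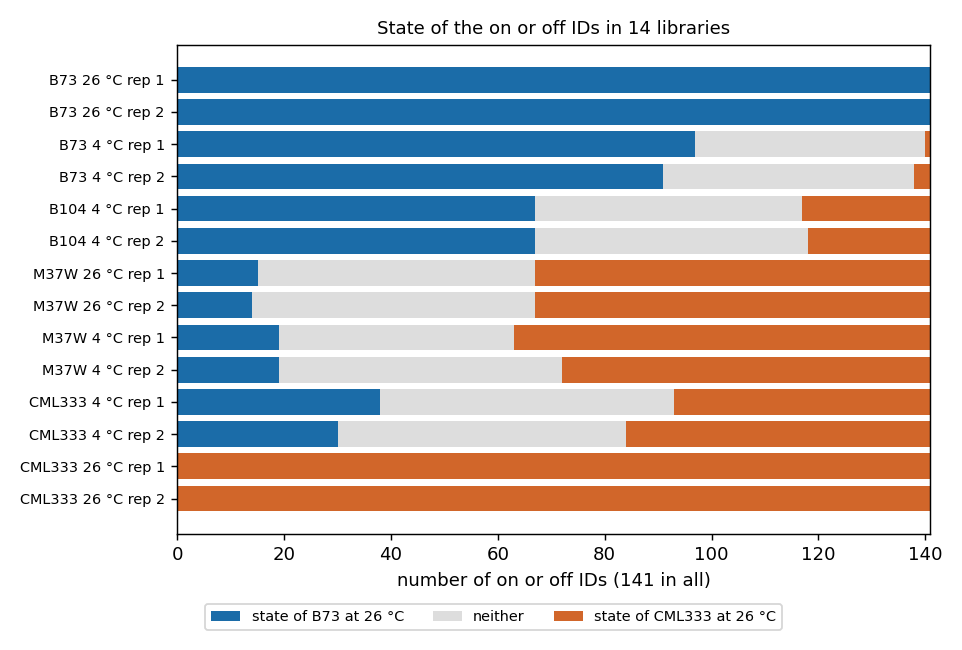
State of the 141 IDs that were on in one line and off in the other at 26 °C, counted in each of 14 libraries (the B104 libraries at 26 °C are left out); blue is the state of B73, orange that of the libraries labelled CML333 and grey neither. The 4 libraries that chose the IDs are full bars by construction, chilled B73 keeps mostly blue, and chilled CML333 holds 48 and 57 IDs in orange beside 38 and 30 in blue.

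The chilled libraries of both labels, which the 26 °C comparison did not use, were tested in the same way. In that comparison 0 of 13705 IDs were called by edgeR (0%), and 2632 had an unadjusted p under 0.05. DESeq2 called 1070 IDs and limma with voom 534. Of the 3070 IDs higher in B73 at 26 °C, 2765 were tested at 4 °C, and 71.1% had the same sign there, with a median log2 difference of -0.63 against -2.14 at 26 °C for the same IDs. Of the 2240 higher in CML333, 1753 were tested and 69.7% had the same sign (median 0.43 against 1.55). Over all IDs the median at 4 °C was 0.04.

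The chilled CML333 libraries differed in this. Leaving out chilled replicate 1, edgeR called 40.3% of all IDs between the lines at 4 °C, and leaving out chilled replicate 2 it called 23.1%. Without chilled replicate 1, 53.2% of the tested IDs higher in B73 at 26 °C were called the same way at 4 °C and 6.92% the opposite way, where 3535 (23.3%) and 2572 (17.0%) of all 15165 IDs were called in these directions. Without chilled replicate 2, these shares were 29.1% and 10.2%, where 1987 (13.6%) and 1390 (9.49%) of all 14641 IDs were called. For IDs higher in CML333 at 26 °C the shares called the same way were 36.5% without chilled replicate 1 (8.95% the opposite way) and 13.7% (8.93%) without chilled replicate 2. The 1544 IDs higher in B73 at both temperatures in the first of these fits were 43.7% of all IDs higher in B73 at 4 °C there.

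None of the named organelle genes that could be tested was called at 4 °C by edgeR, where 0% of all IDs were. The sign at 4 °C was opposite to that at 26 °C for ycf3, atpF, matK, rps1, cox3, rps7, rps12, cox1, trnR-a and ccmFN. For cox3 (-0.06, SE 1.32), matK (0.05, SE 0.946), rps1 (-0.25, SE 1.25), ccmFN (0.08, SE 0.794), atpF (-1.44, SE 1.76), rps12 (-0.88, SE 1.05) and cox1 (-0.78, SE 0.941) the 4 °C difference was smaller than its SE. The difference between the line effects at the 2 temperatures was tested in 1 fit of the 8 libraries of both lines, which called 4.53% of all IDs and none of the organelle IDs. For ycf3 the levels were 210.3 and 353 CPM in chilled B73 and 116 and 30.3 CPM in chilled CML333 (log2 difference -1.94, SE 0.800, edgeR adjusted p = 0.284). For nad4 they were 3.30 and 46.1 CPM in chilled B73 and 83.1 and 16.9 CPM in chilled CML333 (1.01, SE 1.35, edgeR adjusted p = 0.738). The replicates of each label lay further apart than the means of the labels for nad4. For orf99-d the direction was that of 26 °C (-1.89, SE 0.975, edgeR adjusted p = 0.379).

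Both sets of called IDs were chosen by their difference at 26 °C, which fixes the direction of their shares in the libraries compared there. The 3070 IDs higher in B73 took 30.1% and 28.8% of counts in B73 and 6.62% and 5.98% in CML333 at 26 °C. In B104 at 26 °C they took 18.7% and 15.7%. They took 32.4% and 30.1% in chilled B73, 33.6% and 33.1% in chilled B104 and 28.3% and 13.0% in the 2 chilled CML333 libraries. In this share chilled replicate 1 of CML333 lay near the chilled libraries of the other lines, and why it did was not tested. The 2240 IDs higher in CML333 took 29.3% and 30.8% of counts in CML333, 8.37% and 9.52% in B73, and 14.0% and 24.7% in chilled CML333. In M37W, whose libraries took no part in the choice of the IDs, the set higher in B73 took 19.6% and 18.8% at 26 °C and 26.5% and 27.0% at 4 °C. There the set higher in CML333 took 17.5% and 17.8% at 26 °C and 13.6% and 13.5% at 4 °C.

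That shift with temperature was examined ID by ID in M37W, in a separate edgeR fit of its 4 libraries. Of the 2336 IDs higher in B73 than in CML333 that could be tested there, 29.3% were higher at 4 °C and 15.5% lower, where 17.6% and 14.2% of all IDs tested in M37W were. Of the 1868 IDs higher in CML333, 16.6% were higher at 4 °C and 18.8% lower. The median log2 difference between 4 °C and 26 °C in M37W was 0.14 in the first set, -0.04 in the second and 0.01 over all IDs. These shares are counts, and whether they differ from those of all IDs was not tested.

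**Figure D5:**
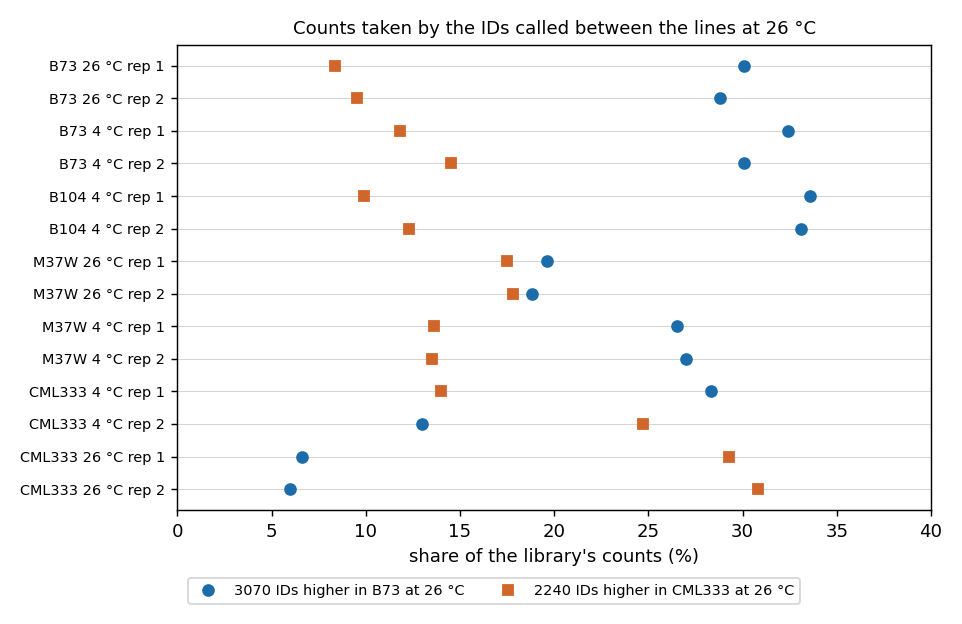
Share of each library's counts (%) taken by the 3070 IDs higher in B73 (circles) and the 2240 higher in CML333 (squares) at 26 °C, in 14 libraries (the B104 libraries at 26 °C are left out). The 26 °C libraries of both lines chose the IDs. Among the others, chilled CML333 replicate 1 has 28.3% in circles and 14.0% in squares, near chilled B73 and chilled M37W. Chilled CML333 replicate 2 has 13.0% and 24.7%, between chilled B73 and CML333 at 26 °C.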

How the data were processed

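The authors deposited 1 table per library with raw whole-number counts per gene ID. Libraries were made with a QuantSeq 3′ forward kit and run on an Illumina NextSeq500, per the labels' protocols. The submitters' processing notes name STAR for alignment and edgeR, without versions. Genome build, annotation, counting tool and handling of multiply aligned reads were not given in the sources used here. Tables scaled by the authors per line were not used. Whether reads of each line aligned equally well was not tested.

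The raw counts went into edgeR 4.0.16 (R 4.3.3). IDs were kept by filterByExpr, and TMM scaled the libraries (factors 0.962 to 1.07). The 4 libraries were fitted with glmQLFit (robust) and tested two-sided with glmQLFTest. That test was also run on simulated counts drawn from the levels and spread fitted here, which checks the code and not the replicate spread. Differences are CML333 minus B73. Replicates differed beyond sampling noise (chi-square per ID 13.9 and 10.0). Alternatives included DESeq2 1.42.0, limma 3.58.1 with voom, other filters, fits of 6, 10 and 16 libraries, each library left out and a replicate block. The B104 libraries at 26 °C, which stand apart from the rest, entered the fit of 16 only.

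Of 46430 IDs, 518 had a symbol in the RefSeq gene table of Zm-B73-REFERENCE-NAM-5.0, 0 of them among the 44146 nuclear IDs, and 0 of 26 gene lists had a matched member. The rule for names took every called organelle ID and, as nuclear IDs have no names, the 2 called IDs with the largest log2 difference in each direction at 10 CPM or more. Organelle IDs that were not called were added after their values were seen. The members and lists were chosen with earlier results of these data known.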

Additional observations from a re-analysis of the deposited data

Results flagged for a closer look

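The line difference of Zm00001d042293 at 4 °C minus that at 26 °C was 10.8 on the log2 scale (SE 1.14, edgeR adjusted p = 0.00619), in a fit of the 8 libraries of B73 and CML333 that was added after the data were seen and called 4.53% of 15772 IDs. The size is no bound, since it rests on the 0 counts of both CML333 libraries at 26 °C. The ID stood at 213 and 152 CPM in B73 at 26 °C and at 46.7 and 44.4 CPM in chilled B73. It stood at 0 in CML333 at 26 °C and at 38.0 and 16 CPM in the chilled libraries of that label. M37W had 0 counts in 3 libraries and 3 counts in chilled replicate 2. Among the organelle IDs this difference passed for none, and it came closest for ycf3 (-4.51, SE 1.06, edgeR adjusted p = 0.0568).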

How the results depend on the processing

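The 5310 IDs called between the lines became 2787 with a fold of at least 2, 3509 in the fit of all 16 libraries and 3312 at an adjusted p under 0.01, and 4298 to 5723 with 1 library left out. Under the other alternatives the count stayed within 1.5 times. The titles give both lines the numbers 1 and 2, but nothing in the labels says that they pair libraries, and the descriptions number the B73 libraries 1 and 2 and the CML333 libraries 2 and 3 (the deviations of same-numbered libraries correlated at 0.118). With the replicate number as a block, 6367 IDs were called, and 5 organelle IDs that had missed the threshold passed it. The number of IDs on in one line and off in the other, 141, became 293 with on at 5 CPM, 58 with on at 20 CPM, 233 with off at 1 count or fewer and 183 to 251 with 1 library left out, the highest without CML333 replicate 1. The share of M37W states that matched CML333 became 62.9% with on at 20 CPM. Of IDs called at 26 °C, 0 were called the same way in the chilled libraries, and 0 to 2254 were when 1 chilled library was left out (2254 without CML333 replicate 1, 1084 without CML333 replicate 2). With 1 library left out, the log2 difference ran from -2.40 to 0.21 for ccmFN, -1.30 to 1.48 for cox1, -0.12 to 2.27 for rrn26, -1.86 to 0.76 for rrn5, -0.10 to 1.95 for rps7 and -2.06 to 2.01 for petD, none of them called in the comparison reported, and the lone library was then assumed to vary like the other line. In the fit of all 16 libraries 9 of the 26 named IDs lost their call, atpF (edgeR adjusted p = 0.114), trnK (0.0839) and matK (0.108) among them, and in the fit of 10 libraries 7 did, nad4 among them (0.0502). The calls for orf99-d, ycf3 and the 4 nuclear IDs held under every alternative in which they were tested. The cause of these changes was not tested. Depth limits the low IDs, since 1 count is about 0.4 CPM.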
